A study of Mus musculus musculus x Mus musculus castaneus with 8 samples.

Results

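The Hox genes of female mouse tail fibroblasts were examined in 4 groups of 2 libraries each. They were taken as every gene in the deposited count table whose symbol is Hoxa, Hoxb, Hoxc or Hoxd followed by a position number, 39 of 24421 genes. The cells were F1 hybrid, with Mus musculus castaneus and Mus musculus musculus as the parents, and all groups were plated alike at 700000 cells on 15 cm dishes and grown for 72 h. The untreated group received DMSO, the solvent, in the same volume as the drugs. The other groups received 5-aza-2'-deoxycytidine (5azadC, a cytidine analogue that depletes DNA methyltransferases), VX680 (which blocks the mitotic Aurora kinases), or the 2 drugs combined, from 24 h after plating. The labels give no drug concentration. They do not say whether the 2 libraries of a group came from separate cultures or animals, so a p-value here reflects library-to-library spread that may be technical. The series title asks how DNA methylation and Aurora kinases act together in X-chromosome reactivation. Hox genes are autosomal and were described here for the same treatments.

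Hox genes encode homeodomain transcription factors and lie in 4 clusters. Within a cluster, genes with low position numbers are used toward the head and those with high numbers toward the tail, so the set of Hox genes that a cell transcribes records where along the body axis it arose. Fibroblasts keep such a set in culture, and the 13th position is the most posterior, used in the tail bud, distal limb and hindgut. Silent Hox genes are held by Polycomb complexes and active ones by trithorax proteins, and CpG islands cover much of the clusters. Genes with the same number in different clusters are paralogues.

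The homeobox, the stretch that codes for the DNA-binding homeodomain, is what the members share. It was read from GENCODE M21 transcripts (GRCm38) for 39 of 39 symbols, as a window set to 180 bases. The window was placed by the amino acid motif WFQNR, so its equal length is not a result. The paralogues at position 13 are shown first because all 3 that could be tested were lower in each treated group. Capitals mark bases that differ from Hoxc13.
Hoxc13: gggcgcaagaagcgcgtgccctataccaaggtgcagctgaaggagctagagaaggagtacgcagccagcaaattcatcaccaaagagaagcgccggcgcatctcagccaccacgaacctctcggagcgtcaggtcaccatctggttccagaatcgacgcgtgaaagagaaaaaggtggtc
Hoxa13: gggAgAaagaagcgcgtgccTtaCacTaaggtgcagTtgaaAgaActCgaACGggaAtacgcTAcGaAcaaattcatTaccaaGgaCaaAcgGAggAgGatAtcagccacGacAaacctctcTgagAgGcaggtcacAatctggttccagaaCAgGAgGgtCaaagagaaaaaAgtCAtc
Hoxb13: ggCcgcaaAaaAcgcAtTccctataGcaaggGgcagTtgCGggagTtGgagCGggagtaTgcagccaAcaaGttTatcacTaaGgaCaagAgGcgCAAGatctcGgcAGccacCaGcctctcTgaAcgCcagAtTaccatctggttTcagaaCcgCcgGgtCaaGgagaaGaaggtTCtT
Against Hoxc13, Hoxa13 matched at 139 bases (77.2%) and Hoxb13 at 133 (73.9%). Hoxc12, its cluster neighbour, matched at only 62.2%. The pairs at positions 11 and 10 are shown because their Hoxa and Hoxc members were called in opposite directions, except that Hoxc10 was not called with VX680. Here capitals mark bases that differ from the Hoxa paralogue.
Hoxa11: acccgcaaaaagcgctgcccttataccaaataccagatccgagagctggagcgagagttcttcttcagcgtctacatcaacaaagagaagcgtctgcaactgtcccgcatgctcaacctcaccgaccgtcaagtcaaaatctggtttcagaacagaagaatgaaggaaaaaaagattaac
Hoxc11: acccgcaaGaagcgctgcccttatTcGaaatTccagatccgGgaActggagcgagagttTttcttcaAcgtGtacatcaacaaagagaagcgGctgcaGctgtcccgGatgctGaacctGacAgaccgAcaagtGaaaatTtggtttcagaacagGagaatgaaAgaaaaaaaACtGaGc
Hoxa10: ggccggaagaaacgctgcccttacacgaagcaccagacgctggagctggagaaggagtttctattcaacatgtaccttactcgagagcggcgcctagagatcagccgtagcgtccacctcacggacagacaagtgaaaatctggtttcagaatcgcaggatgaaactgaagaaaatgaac
Hoxc10: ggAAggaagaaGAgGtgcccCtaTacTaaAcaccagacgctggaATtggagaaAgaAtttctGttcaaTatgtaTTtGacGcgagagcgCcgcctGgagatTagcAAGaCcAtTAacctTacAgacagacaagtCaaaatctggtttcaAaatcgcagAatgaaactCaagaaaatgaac
Hoxc11 matched Hoxa11 at 86.7% of bases and Hoxc10 matched Hoxa10 at 80.6%. For the transcript chosen for each gene, the longest run of identical bases shared by a pair was 52 bases among all 741 pairs of members. Among the 26 genes tested it was 50. Other transcripts of a gene were not compared. In the GENCODE models the exons of Hoxc5 and Hoxc10 share 166 bases on the same strand, and those of Hoxd3 and Hoxd4 share 388. These runs therefore set no limit on the bases that transcripts of the genes can share.

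Reads per gene were deposited as raw counts. A level is given in CPM (read count relative to library size, with edgeR's TMM factors), and levels of different genes are compared only as CPM per kb of the gene length in the table. Of the 39 members, 26 passed edgeR's filter on low counts: 8 of 11 Hoxa genes, 9 of 10 Hoxb genes, 9 of 9 Hoxc genes and 0 of 9 Hoxd genes. The Hoxc cluster (chromosome 15) held 25119 reads over the 8 libraries, Hoxb (chromosome 11) 19508, Hoxa (chromosome 6) 11582 and Hoxd (chromosome 2) 28. The 9 Hoxd genes together had 0 to 12 reads in a library, where 3 counts correspond to 0.269 to 0.434 CPM. Hoxd RNA was thus at the limit of this depth in each of the 8 libraries. Hoxa2 had 18 reads over all libraries and Hoxa6 58. Hoxb1 had 6, of which 5 lay in 1 VX680 library, and no fold change is given for any of the 13 genes that did not pass.

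In untreated cells the most abundant Hox RNAs per length were the posterior genes at the end of the Hoxc cluster. Hoxc12 stood at 199 ± 24.9 CPM per kb (SD, n = 2), Hoxc13 at 122 ± 13.4 and Hoxc11 at 82.3 ± 8.22. Hoxb13 followed at 57.6 ± 1.19, then Hoxa10 at 41.3 ± 2.52 and Hoxb9 at 30.9 ± 0.614. Neighbours in this order lay further apart than their SDs reached. The next group, Hoxb6 at 20.7 ± 2.94, Hoxa13 at 19.8 ± 0.818 and Hoxb3 at 18.7 ± 1.53, was not separated beyond its spread. Within Hoxc the level per length ran down from Hoxc12 to 4.65 ± 1.04 at Hoxc9 and 2.2 ± 1.27 at Hoxc8. Toward the anterior end it was not ordered, with Hoxc6 at 9.77 ± 1.71, close to Hoxc10 at 10.1 ± 0.884, and Hoxc5 (3.49) and Hoxc4 (3.95) between Hoxc8 and Hoxc9. Hoxb was not ordered by position either, with Hoxb2 (15.8 CPM per kb), Hoxb3 and Hoxb5 (13.1) above Hoxb7 (5.76) and Hoxb8 (2.68). In Hoxa the anterior and central genes that passed the filter stood at 0.627 to 3.03 CPM per kb and the posterior ones at 8.9 to 41.3.

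**Figure D1:**
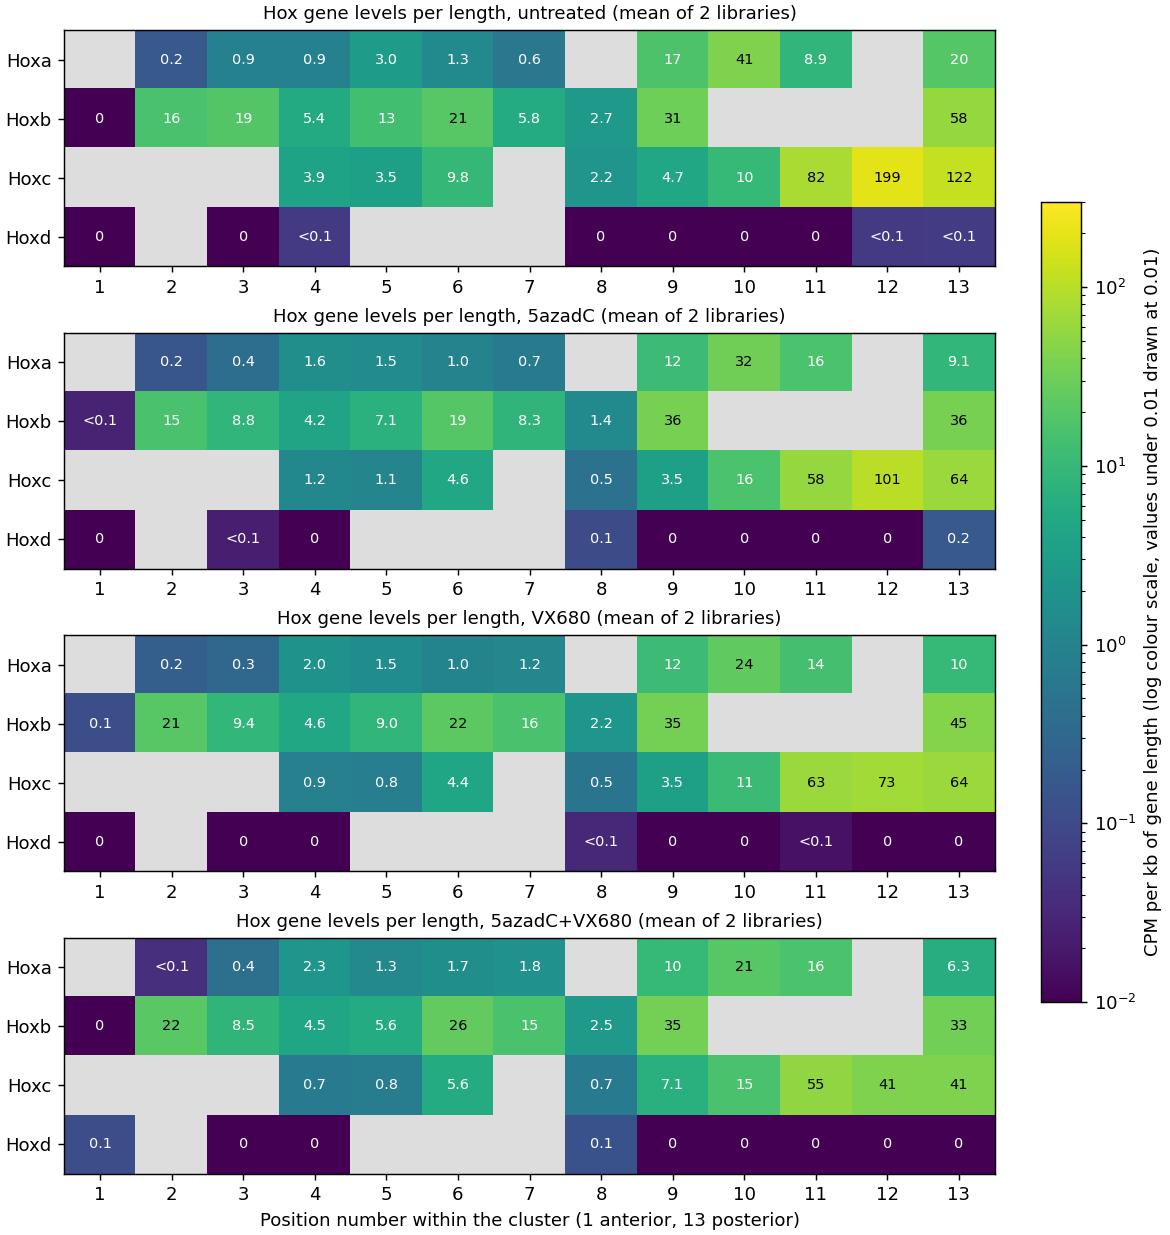
Mean level of 38 Hox genes in CPM per kb of gene length (printed in each cell, colour on a log scale) by cluster (rows) and position number (columns), 1 panel per group of 2 libraries; grey cells have no gene or none shown. In untreated cells Hoxc12 (199) and Hoxc13 (122) stood above all other members, and with both drugs Hoxc11 (54.9) had the highest mean, within the spread of Hoxc12 and Hoxc13, while the Hoxd row stayed near 0 in every panel.

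Library totals ran from 6908503 to 11169532 reads in genes. The 5azadC libraries differed most from each other (chi-square per degree of freedom 19.9, against 7.50 in untreated, 3.02 in VX680 and 2.74 in 5azadC+VX680 pairs). Of the 12 fibroblast markers, 11 were tested and none was at 0 reads. Their summed level was 35207 to 39958 CPM in untreated, 23251 to 27012 in 5azadC, 17952 to 18236 in VX680 and 15141 to 15705 in 5azadC+VX680 libraries. Collagen genes make up much of that sum, and it was lower in all treated libraries. Of the 11 tested, 2 were called higher and 5 lower with 5azadC, 3 and 6 with VX680, and 3 and 7 with both. Their median log2 changes were -0.12, -0.98 and -2.08. Markers of 8 other cell types were summed likewise. Skeletal muscle markers were higher in all treated libraries, at 19.8 to 20.7 CPM in untreated, 38.8 to 47.04 in 5azadC, 27.98 to 29.3 in VX680 and 27.7 to 28.4 in 5azadC+VX680 libraries, with Pax7 at 0 reads. The adipocyte sum was lower in all treated libraries. It was 90.03 to 98.8 CPM in untreated, 29.5 to 45.1 in 5azadC, 78.7 to 83.9 in VX680 and 58.9 to 65.7 in 5azadC+VX680 libraries. Of 3 adipocyte markers tested, 2 were called higher and 1 lower with 5azadC, 1 and 1 with VX680, and 2 and 1 with both. Their median log2 changes were 1.02, 0.34 and 1.06, so the sum and most single markers did not move alike. Neural and glial markers were at 7.62 to 11.7 CPM in untreated, 5.57 to 9.05 in 5azadC, 21.3 to 22.9 in VX680 and 18.98 to 21.1 in 5azadC+VX680 libraries, with Snap25 at 0 reads. The chondrocyte sum was 28.3 to 30.2 CPM in untreated, 25.9 to 29.2 in 5azadC, 13.6 to 14.7 in VX680 and 16.1 to 21.7 in 5azadC+VX680 libraries. Of 3 chondrocyte markers tested, 1 was called higher and 0 lower with 5azadC, 2 and 1 with VX680, and 1 and 1 with both. Their median log2 changes were 0.17, 1.33 and 0.72, so the lower sums with VX680 and with both do not hold for each marker. Leukocyte markers were at 15.7 to 18.9 CPM in untreated, 15.7 to 21.1 in 5azadC, 20.7 to 20.9 in VX680 and 19.3 to 25.03 in 5azadC+VX680 libraries, with Cd3e at 0 reads. Melanocyte markers were at 30.6 to 33.3 CPM in untreated, 27.98 to 43.9 in 5azadC, 39.02 to 41.2 in VX680 and 26.4 to 33.3 in 5azadC+VX680 libraries, with Tyr at 0 reads, and keratinocyte markers at 1.36 to 2.93 CPM in untreated and 1.83 to 2.66 in treated libraries. Endothelial markers (6 listed, 4 tested) were at 126 to 143 CPM in untreated and 218 to 232 in 5azadC libraries. They were at 192 to 195 CPM in VX680 and 175 to 196 in 5azadC+VX680 libraries. Of the 4 tested, 2 were called higher and 0 lower with 5azadC, 3 and 0 with VX680, and 1 and 0 with both. Their median log2 changes were 0.848, 2.398 and 1.717. The defining genes Cdh5 and Kdr had only 19 and 10 reads over 8 libraries. The part of these differences in the Hox results was not tested. In bulk RNA, fewer cells that transcribe a Hox gene and less of its RNA per cell cannot be told apart.

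Summed over the 39 genes, Hox RNA was lower in every treated library than in either untreated library. The sum was 656 and 747 CPM per kb in the untreated libraries, 453 and 469 with 5azadC, 461 and 443 with VX680 and 410.1 and 349 with both drugs. The 3 treated groups are all compared with the same 2 untreated libraries, so their values are set side by side here and are not independent of each other. Posterior Hoxc genes, summed, made up most of the difference with both drugs, at 383 and 452 CPM per kb in the untreated and 179 and 140.2 in the 5azadC+VX680 libraries. That fall lay mainly in Hoxc12 (mean 199 to 41.4 CPM per kb) and Hoxc13 (122 to 40.5), with less in Hoxc11 (82.3 to 54.9). The means of Hoxc10 (10.1 to 15.4) and Hoxc9 (4.65 to 7.07) were higher with both.

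With 5azadC, 14 of the 26 tested Hox genes fell and 2 rose (adjusted p under 0.05, edgeR's quasi-likelihood test with Benjamini-Hochberg adjustment over 12643 genes), against 19.6% lower and 22.6% higher among all genes tested. Hoxc gave 7 of the falls out of 9 genes (Hoxc4, Hoxc5, Hoxc6, Hoxc8, Hoxc11, Hoxc12 and Hoxc13). Hoxb gave 4 of 9 (Hoxb3, Hoxb5, Hoxb8 and Hoxb13) and Hoxa 3 of 8 (Hoxa9, Hoxa10 and Hoxa13). The rises were Hoxa11 and Hoxc10. The median log2 change of the 26 was -0.59, beside 0.00 over all genes. In either direction 42.2% of all genes were called.

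With VX680, 13 Hox genes fell and 3 rose, against 22.4% lower and 23.8% higher among all genes. The falls were again 7 in Hoxc, with 3 in Hoxb (Hoxb3, Hoxb5 and Hoxb13) and 3 in Hoxa (Hoxa9, Hoxa10 and Hoxa13). Hoxa4, Hoxa11 and Hoxb7 rose. The median log2 change was -0.45, beside 0.01 over all genes. In either direction 46.1% of all genes were called. Without VX680 replicate 1, 10 Hox genes passed the threshold in place of 16.

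With both drugs, 14 Hox genes fell and 6 rose, against 27.3% lower and 28.4% higher among all genes. Hoxc gave 7 falls, Hoxa 4 (Hoxa5, Hoxa9, Hoxa10 and Hoxa13) and Hoxb 3 (Hoxb3, Hoxb5 and Hoxb13). The rises were Hoxa4, Hoxa7, Hoxa11, Hoxb2, Hoxb7 and Hoxc10. In either direction 55.7% of all genes were called. The median log2 change of the 26 was -0.75, beside 0.01 over all genes. By cluster the median was -1.58 in Hoxc, -0.85 in Hoxa and -0.09 in Hoxb.

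**Figure D2:**
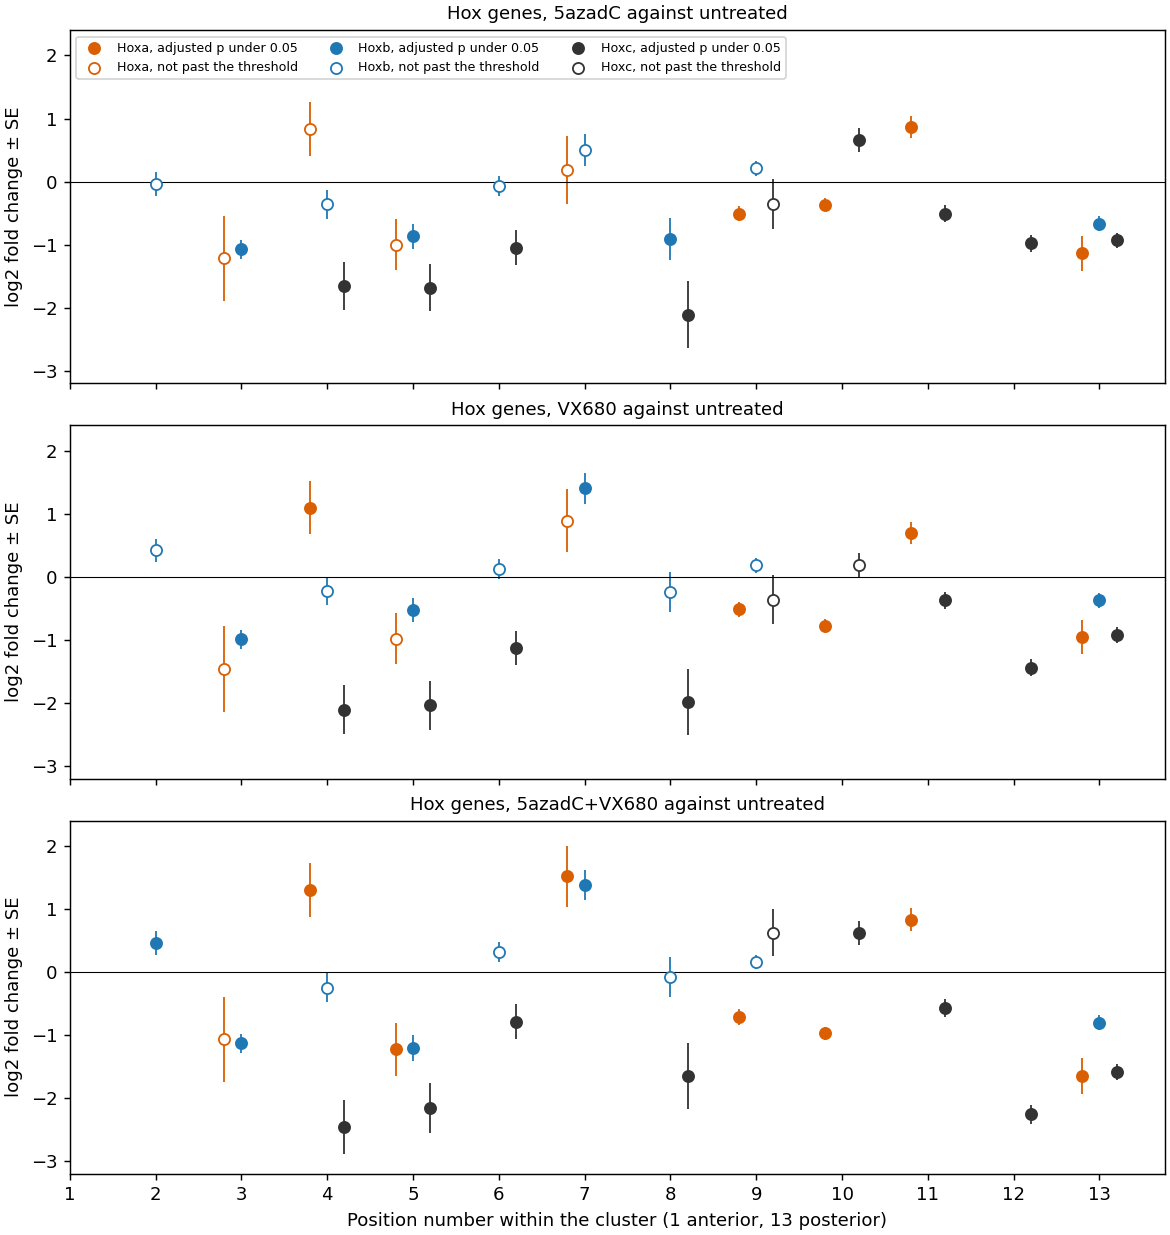
Log2 fold change ± SE (vertical axis) of the 26 tested Hox genes by position number (horizontal axis) and cluster (colour), 1 panel for each treatment against the same 2 untreated libraries; filled points passed an adjusted p of 0.05. Hoxc points lie mostly below 0 in each panel (7 of 9 called lower), and Hoxa11 is above 0 in all 3.

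All 3 tested genes of position 13, which mark the caudal end of the axis, fell with each treatment. Hoxc13, which also acts in hair and nail formation, stood at 273 and 319 CPM in the untreated libraries, 139 and 171 in the 5azadC libraries, 167 and 143 in the VX680 libraries and 107 and 90.4 with both drugs. Every treated library lay below both untreated ones, and both libraries with both drugs lay below all single-drug libraries. Hoxc13 showed log2 changes of -0.93 ± 0.13 (adjusted p = 5.76e-05) with 5azadC, -0.93 ± 0.13 (adjusted p = 4.7e-05) with VX680 and -1.58 ± 0.13 (adjusted p = 2.9e-07) with both. Hoxb13, known for its part in tail growth and the prostate, stood at 76.5 and 74.3 CPM in the untreated libraries, 44.7 and 50.5 in the 5azadC libraries, 53.1 and 63.7 in the VX680 libraries and 40.9 and 45.5 with both drugs. Hoxb13 showed log2 changes of -0.67 ± 0.12 (adjusted p = 0.000551) with 5azadC, -0.37 ± 0.12 (adjusted p = 0.0182) with VX680 and -0.80 ± 0.12 (adjusted p = 7.71e-05) with both. Its treated and untreated libraries did not overlap, but the VX680 call was lost without untreated replicate 1 (adjusted p = 0.0772), without VX680 replicate 1 (adjusted p = 0.216) and with limma on the authors' normalized signal (adjusted p = 0.104). Hoxa13, needed in digits and the urogenital tract, stood at 25.02 and 26.5 CPM in the untreated libraries, 7.91 and 15.8 in the 5azadC libraries, 14.04 and 12.4 in the VX680 libraries and 9.84 and 6.49 with both drugs. Hoxa13 showed log2 changes of -1.14 ± 0.27 (adjusted p = 0.00431) with 5azadC, -0.96 ± 0.27 (adjusted p = 0.00967) with VX680 and -1.66 ± 0.29 (adjusted p = 0.000246) with both. The 5azadC libraries of Hoxa13 were far apart, yet neither reached the untreated level. Its VX680 call was lost without untreated replicate 2 (adjusted p = 0.0502) and without VX680 replicate 2 (adjusted p = 0.0763).

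Hoxc12, the neighbour of Hoxc13, had the smallest adjusted p of the members with both drugs. Its level was 152 and 182 CPM in the untreated libraries, 75.02 and 94.9 in the 5azadC libraries, 63.2 and 59.3 in the VX680 libraries and 38.8 and 30.8 with both drugs. The 4 groups did not overlap and were ordered untreated, 5azadC, VX680, both. Hoxc12 showed log2 changes of -0.98 ± 0.13 (adjusted p = 6.51e-05) with 5azadC, -1.44 ± 0.14 (adjusted p = 2.02e-06) with VX680 and -2.26 ± 0.15 (adjusted p = 2.9e-08) with both. On the linear scale that is 4.79-fold lower with both drugs. In CPM per kb it went from 199 ± 24.9 (SD, n = 2) to 41.4 ± 6.76.

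The paralogues at position 11 moved in opposite directions. Hoxa11, a gene of limb and reproductive tract patterning, stood at 21.3 and 19.3 CPM in the untreated libraries, 44.4 and 30.03 in the 5azadC libraries, 34.2 and 31.6 in the VX680 libraries and 37.96 and 34.6 with both drugs. All 6 treated libraries lay above both untreated ones. Hoxa11 showed log2 changes of 0.87 ± 0.17 (adjusted p = 0.00129) with 5azadC, 0.69 ± 0.18 (adjusted p = 0.00558) with VX680 and 0.83 ± 0.18 (adjusted p = 0.00125) with both. Without VX680 replicate 1 its VX680 call was lost (adjusted p = 0.0534). Hoxc11, in contrast, stood at 69.7 and 80.3 CPM in the untreated libraries, 53.1 and 52.3 in the 5azadC libraries, 57.3 and 58.1 in the VX680 libraries and 58.9 and 41.3 with both drugs. Hoxc11 showed log2 changes of -0.51 ± 0.14 (adjusted p = 0.0109) with 5azadC, -0.37 ± 0.14 (adjusted p = 0.0418) with VX680 and -0.58 ± 0.14 (adjusted p = 0.00355) with both. The treated libraries of Hoxc11 were below both untreated ones, with the 2 of both drugs furthest apart. Its VX680 call was kept in 10 of 16 alternative settings, with adjusted p up to 0.211; it was lost without untreated replicate 2, VX680 replicate 1 or VX680 replicate 2, and with DESeq2, upper quartile factors or limma. The 5azadC call was lost without untreated replicate 2 (adjusted p = 0.0799) and that of both drugs without 5azadC+VX680 replicate 2 (adjusted p = 0.0606).

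Position 10 gave the reverse arrangement, with the Hoxa member lower and the Hoxc member higher. Hoxa10, which acts in the lumbosacral axis and the uterus, stood at 101 and 110.2 CPM in the untreated libraries, 80.7 and 83.2 in the 5azadC libraries, 58.4 and 64.99 in the VX680 libraries and 53.6 and 53.7 with both drugs. Its 4 groups did not overlap. Hoxa10 showed log2 changes of -0.36 ± 0.10 (adjusted p = 0.009) with 5azadC, -0.78 ± 0.10 (adjusted p = 3.09e-05) with VX680 and -0.98 ± 0.10 (adjusted p = 2.72e-06) with both; without untreated replicate 2 the 5azadC adjusted p was 0.0585. Hoxc10, known in hindlimb patterning and adipose depots, stood at 18.1 and 20.5 CPM in the untreated libraries, 36.2 and 24.4 in the 5azadC libraries, 23.4 and 20.2 in the VX680 libraries and 31.8 and 27.2 with both drugs. Its VX680 libraries overlapped the untreated ones and those of the other treatments did not. Hoxc10 showed log2 changes of 0.66 ± 0.19 (adjusted p = 0.0128) with 5azadC, 0.19 ± 0.19 (adjusted p = 0.46) with VX680 and 0.62 ± 0.19 (adjusted p = 0.0149) with both. The 5azadC call was lost without untreated replicate 1 (adjusted p = 0.114) or 5azadC replicate 1 (adjusted p = 0.168). That of both drugs was lost without untreated replicate 1 (adjusted p = 0.117) or 5azadC+VX680 replicate 1 (adjusted p = 0.119). Hoxc10 shares 166 exonic bases with Hoxc5 on the same strand in the GENCODE models, which is 8.70% of its exons.

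At position 9, the start of the posterior class, Hoxa9 was the member that passed. Hoxa9, also a regulator of blood progenitors, stood at 54.7 and 52.6 CPM in the untreated libraries, 38.3 and 37.2 in the 5azadC libraries, 38.98 and 35.96 in the VX680 libraries and 29.4 and 35.9 with both drugs. All treated libraries lay below both untreated ones. Hoxa9 showed log2 changes of -0.51 ± 0.12 (adjusted p = 0.00504) with 5azadC, -0.52 ± 0.12 (adjusted p = 0.00388) with VX680 and -0.72 ± 0.13 (adjusted p = 0.000302) with both. Hoxb9, second in its cluster to Hoxb13 per length in untreated cells, stood at 82.2 and 84.6 CPM in the untreated libraries, 102 and 90.7 in the 5azadC libraries, 96.1 and 92.8 in the VX680 libraries and 104 and 82.4 with both drugs. Hoxb9 showed log2 changes of 0.21 ± 0.12 (adjusted p = 0.161) with 5azadC, 0.18 ± 0.11 (adjusted p = 0.217) with VX680 and 0.16 ± 0.12 (adjusted p = 0.263) with both, none past the threshold. Hoxc9 stood at 6.71 and 9.23 CPM in the untreated libraries, 9.14 and 2.88 in the 5azadC libraries, 6.68 and 5.46 in the VX680 libraries and 12.5 and 11.7 with both drugs, with log2 changes of -0.35 ± 0.39 (adjusted p = 0.498) with 5azadC, -0.36 ± 0.39 (adjusted p = 0.47) with VX680 and 0.62 ± 0.37 (adjusted p = 0.172) with both. It passed no comparison, and its libraries with both drugs were the highest 2 of the 8.

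**Figure D3:**
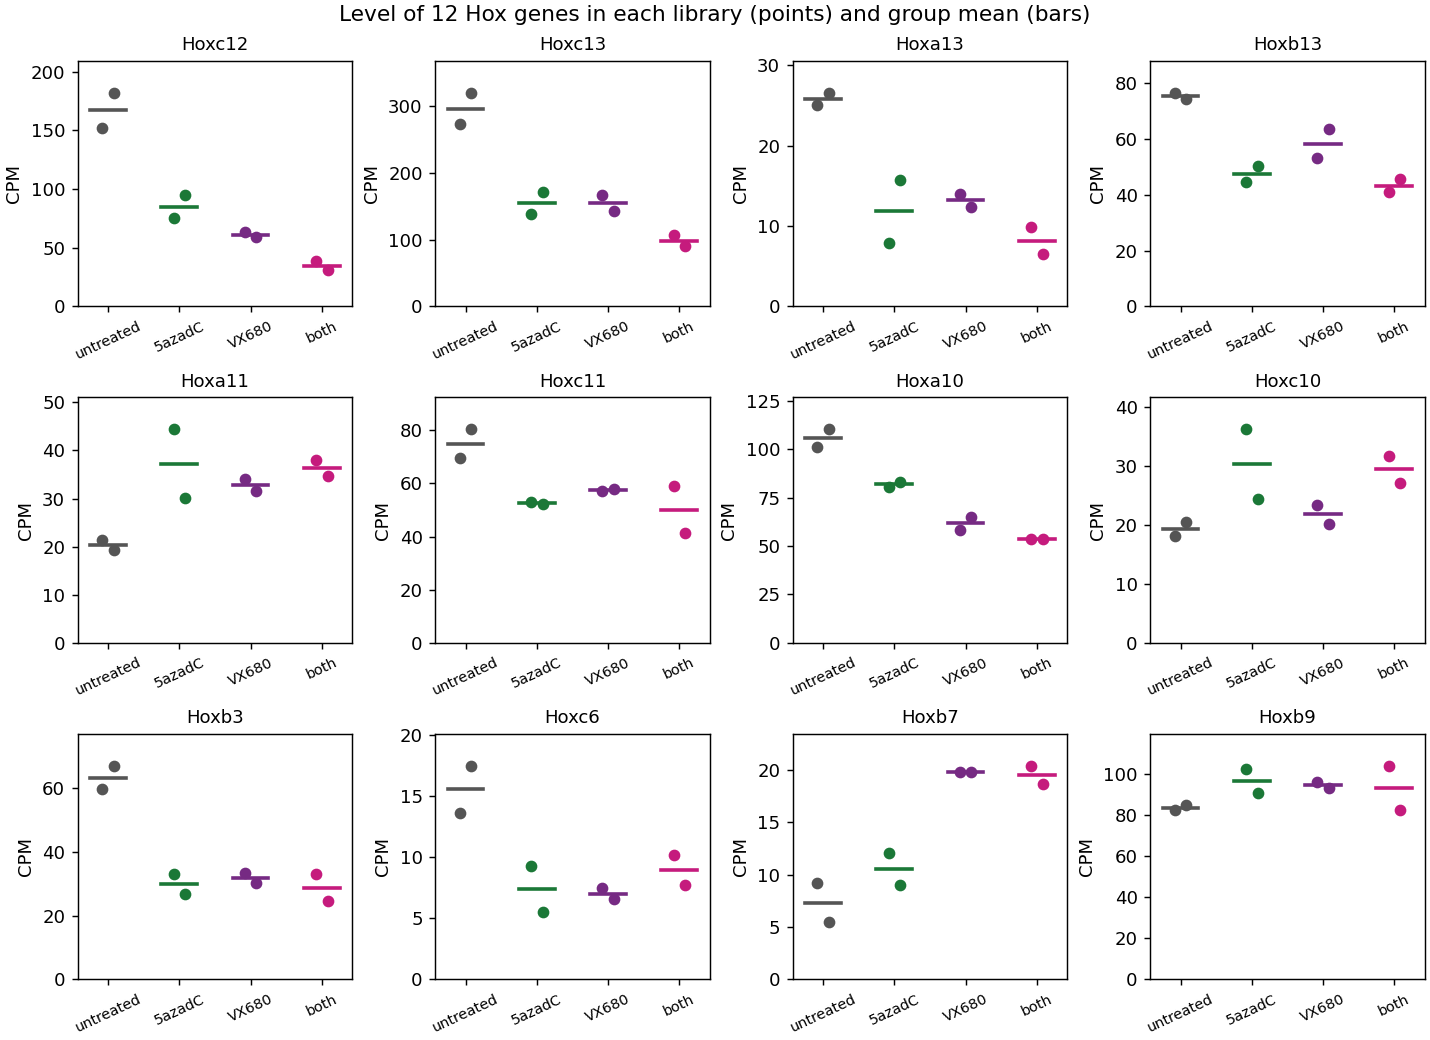
Level in CPM (vertical axis, from 0) of 12 Hox genes in each library (points) and the mean of the 2 libraries of a group (bars), by group (horizontal axis). Hoxc12, Hoxc13, Hoxa13 and Hoxb13 are lower in all treated libraries, Hoxa11 is higher in all of them, and Hoxb7 is higher with VX680 and with both.

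The central genes (positions 5 to 8), which pattern the trunk, fell where tested in Hoxc, while those of Hoxa and Hoxb moved both ways. Hoxc8 stood at 3.08 and 7.33 CPM in the untreated libraries, 1.34 and 0.96 in the 5azadC libraries, 0.982 and 1.6 in the VX680 libraries and 1.69 and 1.52 with both drugs. Its untreated libraries differed widely, and the lower one still lay above all treated ones. Hoxc8 showed log2 changes of -2.11 ± 0.53 (adjusted p = 0.00601) with 5azadC, -1.99 ± 0.52 (adjusted p = 0.00665) with VX680 and -1.65 ± 0.52 (adjusted p = 0.015) with both. Without untreated replicate 2 none of these calls held (adjusted p = 0.094, 0.111 and 0.211), and the VX680 call was lost without VX680 replicate 1 (adjusted p = 0.0838) and that of both drugs without either of its own libraries (adjusted p = 0.065 and 0.0844). Hoxc6 stood at 13.6 and 17.4 CPM in the untreated libraries, 9.25 and 5.49 in the 5azadC libraries, 7.46 and 6.53 in the VX680 libraries and 10.1 and 7.73 with both drugs. Hoxc6 showed log2 changes of -1.05 ± 0.28 (adjusted p = 0.00758) with 5azadC, -1.13 ± 0.27 (adjusted p = 0.00414) with VX680 and -0.79 ± 0.27 (adjusted p = 0.0249) with both, lost without untreated replicate 2 for 5azadC (adjusted p = 0.0577) and both drugs (adjusted p = 0.141). For both drugs it was lost as well without 5azadC+VX680 replicate 2 (adjusted p = 0.168) and with limma on the authors' signal (adjusted p = 0.0544). Hoxc5 stood at 7.16 and 11.9 CPM in the untreated libraries, 2.45 and 3.43 in the 5azadC libraries, 2.16 and 2.4 in the VX680 libraries and 1.55 and 2.62 with both drugs, with no overlap between untreated and treated libraries. Hoxc5 showed log2 changes of -1.68 ± 0.38 (adjusted p = 0.00277) with 5azadC, -2.04 ± 0.39 (adjusted p = 0.000691) with VX680 and -2.16 ± 0.40 (adjusted p = 0.000429) with both, and these calls were kept in each alternative setting that tested the gene.

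Among the central Hoxb genes, Hoxb7 rose with VX680 and with both drugs, and Hoxb5 fell with each treatment. Hoxb7 stood at 9.16 and 5.42 CPM in the untreated libraries, 12.04 and 9.05 in the 5azadC libraries, 19.8 and 19.8 in the VX680 libraries and 20.4 and 18.6 with both drugs. The 2 libraries with VX680 and the 2 with both drugs lay above all others, and the 5azadC libraries overlapped the untreated ones. Hoxb7 showed log2 changes of 0.50 ± 0.25 (adjusted p = 0.131) with 5azadC, 1.40 ± 0.24 (adjusted p = 0.000342) with VX680 and 1.38 ± 0.24 (adjusted p = 0.000302) with both. Hoxb5 stood at 21.5 and 28.00 CPM in the untreated libraries, 12.5 and 14.5 in the 5azadC libraries, 17.5 and 16.5 in the VX680 libraries and 11.8 and 9.52 with both drugs. Hoxb5 showed log2 changes of -0.87 ± 0.20 (adjusted p = 0.00319) with 5azadC, -0.53 ± 0.19 (adjusted p = 0.0374) with VX680 and -1.20 ± 0.21 (adjusted p = 0.000214) with both. Its VX680 call was kept in 10 of 16 alternative settings with adjusted p up to 0.246, and was lost without untreated replicate 2, VX680 replicate 1 or VX680 replicate 2. Hoxb6 stood at 27.3 ± 3.87 CPM (mean ± SD, n = 2) in untreated cells, 25.7 ± 1.81 with 5azadC, 29.4 ± 2.35 with VX680 and 33.7 ± 4.68 with both and passed no comparison. Hoxb8 stood at 6.53 and 7.62 CPM in the untreated libraries, 4.9 and 2.47 in the 5azadC libraries, 6.38 and 5.46 in the VX680 libraries and 6.47 and 6.76 with both drugs. The fall with 5azadC (-0.90 ± 0.33, adjusted p = 0.0424) was kept in 6 of 15 alternative settings, with adjusted p up to 0.224, and was lost on leaving out any library other than 5azadC replicate 1. With VX680 the Hoxb8 log2 change was -0.24 ± 0.31 (adjusted p = 0.558) and with both -0.09 ± 0.32 (adjusted p = 0.83).

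The central Hoxa genes were scarce. Hoxa5, with 226 reads in all, stood at 4.44 and 6.89 CPM in the untreated libraries, 3.68 and 1.78 in the 5azadC libraries, 3.04 and 2.53 in the VX680 libraries and 2.25 and 2.48 with both drugs. Hoxa5 showed log2 changes of -0.999 ± 0.41 (adjusted p = 0.0637) with 5azadC, -0.99 ± 0.40 (adjusted p = 0.0606) with VX680 and -1.23 ± 0.42 (adjusted p = 0.024) with both. Hoxa7, with 137 reads in all, stood at 1.27 and 1.17 CPM in the untreated libraries, 1.78 and 0.96 in the 5azadC libraries, 2.65 and 1.86 in the VX680 libraries and 3.09 and 4.00 with both drugs. Hoxa7 showed log2 changes of 0.18 ± 0.53 (adjusted p = 0.808) with 5azadC, 0.89 ± 0.50 (adjusted p = 0.16) with VX680 and 1.52 ± 0.48 (adjusted p = 0.016) with both. With both drugs the Hoxa5 fall was lost without untreated replicate 2 or either library with both drugs (adjusted p up to 0.158), and the Hoxa7 rise without either untreated library or 5azadC+VX680 replicate 2 (adjusted p up to 0.111). Hoxa7 shares 20.4% of its exons with the antisense gene Hoxaas3, which had 4 reads in all libraries.

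The anterior genes (positions 1 to 4), which pattern the hindbrain and neck, moved in both directions. Hoxc4, the most anterior Hoxc gene, stood at 6.53 and 9.09 CPM in the untreated libraries, 2.9 and 1.92 in the 5azadC libraries, 2.16 and 1.33 in the VX680 libraries and 1.41 and 1.38 with both drugs. Treated and untreated libraries did not overlap. Hoxc4 showed log2 changes of -1.66 ± 0.38 (adjusted p = 0.0033) with 5azadC, -2.11 ± 0.39 (adjusted p = 0.000637) with VX680 and -2.46 ± 0.42 (adjusted p = 0.000226) with both, kept in each alternative setting that tested the gene. Hoxb3 stood at 59.7 and 66.99 CPM in the untreated libraries, 33.1 and 26.7 in the 5azadC libraries, 33.4 and 30.1 in the VX680 libraries and 32.9 and 24.7 with both drugs. Every treated library was below both untreated ones, and the 3 treated groups overlapped each other. Hoxb3 showed log2 changes of -1.07 ± 0.15 (adjusted p = 9.22e-05) with 5azadC, -0.99 ± 0.15 (adjusted p = 0.000134) with VX680 and -1.13 ± 0.16 (adjusted p = 3.26e-05) with both. In GENCODE, 52.9% of its exons are overlapped on the opposite strand by Hoxb3os. The libraries mark strand, but whether the counting used it is not given in the sources used here, so Hoxb3 and antisense reads may not be separate; the same limit holds for the other tested members with an antisense overlap, Hoxa3, Hoxa4, Hoxa7, Hoxa11, Hoxb2 and Hoxb5.

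Hoxa4 stood at 1.36 and 1.47 CPM in the untreated libraries, 2.68 and 2.33 in the 5azadC libraries, 2.85 and 3.2 in the VX680 libraries and 3.23 and 3.73 with both drugs. Hoxa4 showed log2 changes of 0.83 ± 0.43 (adjusted p = 0.14) with 5azadC, 1.09 ± 0.42 (adjusted p = 0.0472) with VX680 and 1.30 ± 0.42 (adjusted p = 0.0177) with both. Its VX680 call was kept in 4 of 15 alternative settings and was lost on leaving out any 1 of the 8 libraries (adjusted p up to 0.179). That of both drugs was kept in 11 of 15 and was lost without either untreated library or 5azadC+VX680 replicate 2 (adjusted p up to 0.0936). Hoxb2 stood at 22.03 and 29.5 CPM in the untreated libraries, 23.6 and 25.9 in the 5azadC libraries, 37.1 and 30.8 in the VX680 libraries and 40.5 and 29.5 with both drugs. Hoxb2 showed log2 changes of -0.04 ± 0.19 (adjusted p = 0.878) with 5azadC, 0.42 ± 0.18 (adjusted p = 0.0772) with VX680 and 0.46 ± 0.19 (adjusted p = 0.0495) with both. Its call with both drugs was kept in 9 of 16 alternative settings and was lost without untreated replicate 1, either VX680 library or 5azadC+VX680 replicate 1 (adjusted p up to 0.462), and Hoxb3os overlaps 27.3% of its exons. Hoxb4 at 13.9 ± 1.7 CPM (mean ± SD, n = 2) in untreated cells, 10.7 ± 1.39 with 5azadC, 11.8 ± 0.441 with VX680 and 11.6 ± 2.51 with both and Hoxa3 at 2.31 ± 0.576 CPM (mean ± SD, n = 2) in untreated cells, 1.06 ± 1.02 with 5azadC, 0.841 ± 0.0598 with VX680 and 1.12 ± 0.803 with both passed no comparison. Hoxa3 had 90 reads in all, and its log2 changes of -1.21 ± 0.67 [not past the threshold], -1.46 ± 0.68 [not past the threshold] and -1.07 ± 0.68 [not past the threshold] carried wide errors.

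The makeup of the Hox RNA differed between groups by position class and by cluster, here as shares of reads per kb with no test. Posterior genes (positions 9 to 13) held 84.5% ± 0.599 (SD, n = 2) in untreated cells, 83.1% ± 1.96 with 5azadC, 78.5% ± 0.686 with VX680 and 73.8% ± 0.00496 with both. Central genes held 8.92% ± 0.365, 9.96% ± 1.6, 12.98% ± 0.14 and 16.1% ± 0.396 in the same order, and anterior genes 6.57% ± 0.234, 6.92% ± 0.352, 8.54% ± 0.545 and 10.1% ± 0.401. The VX680 libraries and those with both drugs lay below every untreated and 5azadC library in posterior share, whereas the 5azadC libraries overlapped the untreated ones. As reads not divided by length the posterior share was 81.9% with 5azadC and 80.9% untreated, so its direction with 5azadC depends on the scale. The Hoxc share was 62.2% ± 1.92 untreated, 54.1% ± 2.25 with 5azadC, 48.99% ± 1.21 with VX680 and 43.9% ± 2.42 with both, and no group overlapped another. Hoxb took 24.4% ± 1.04, 29.7% ± 1.55, 36.2% ± 0.735 and 39.9% ± 0.846. Of the 3 clusters above the depth limit, Hoxa moved least, from 13.4% ± 0.908 to 16.2% ± 1.55 with both. Posterior genes remained the larger share in each of the 8 libraries. Shares weigh genes by abundance, and Hoxc12 and Hoxc13 went from 199 and 122 CPM per kb untreated to 41.4 and 40.5 with both. Per tested gene, the median log2 changes of anterior, central and posterior genes were -0.72, -0.90 and -0.51 with 5azadC. They were -0.61, -0.53 and -0.37 with VX680 and -0.66, -0.79 and -0.72 with both. The posterior median was thus the lowest in none of these comparisons.

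**Figure D4:**
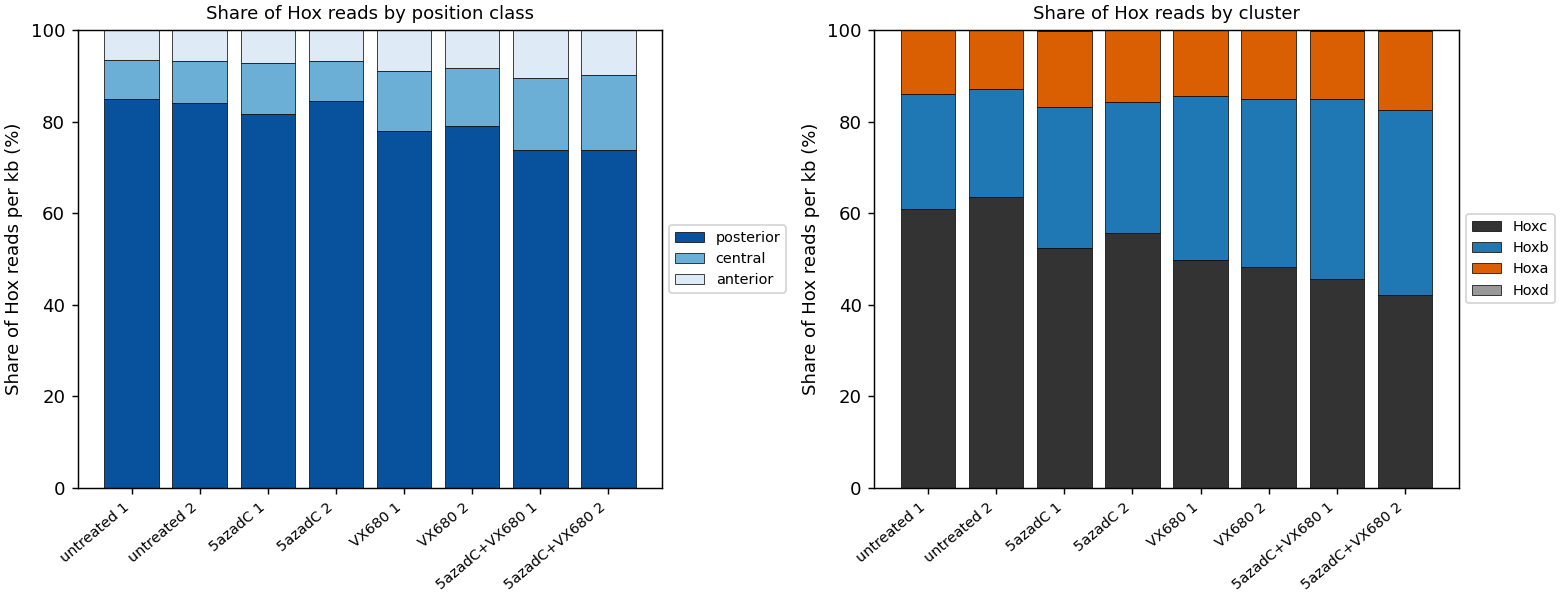
Share of Hox reads per kb (vertical axis, percent) in each of the 8 libraries, split by position class (left) and by cluster (right). The mean posterior and Hoxc shares are 84.5% and 62.2% in untreated cells and 73.8% and 43.9% with both drugs; the posterior shares of untreated and 5azadC libraries overlap.

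The 2 drugs together were compared with each drug alone. Against 5azadC, 3 of the 26 genes fell and 1 rose with the combination, beside 14.8% lower and 9.98% higher (24.8% in all) among all genes. Hoxc12 (-1.29 ± 0.15, adjusted p = 3.79e-05), Hoxc13 (-0.65 ± 0.13, adjusted p = 0.00254) and Hoxa10 (-0.61 ± 0.10, adjusted p = 0.00078) fell and Hoxb7 (0.88 ± 0.24, adjusted p = 0.0158) rose. Against VX680, 2 fell and 0 rose, beside 4.05% lower and 2.45% higher (6.5% in all) among all genes: Hoxc12 (-0.82 ± 0.15, adjusted p = 0.00512) and Hoxc13 (-0.66 ± 0.13, adjusted p = 0.00873). Without 5azadC+VX680 replicate 2 the fall of Hoxc13 against 5azadC was lost (adjusted p = 0.0517), and the Hoxb7 rise was lost without 5azadC replicate 2 or either library with both drugs (adjusted p up to 0.105). With 1 library left out 3 to 7 Hox genes passed against 5azadC, the 7 without 5azadC replicate 1. Against VX680 neither call held without VX680 replicate 1 or 5azadC+VX680 replicate 2 (adjusted p up to 0.114 for Hoxc12 and 0.149 for Hoxc13). The Hoxc13 call was lost without 5azadC+VX680 replicate 1 too (adjusted p = 0.0512), and 6 Hox genes passed without either 5azadC library.

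Between the single drugs, Hoxb7 was higher with VX680 than with 5azadC (0.90 ± 0.24, adjusted p = 0.0185), and Hoxa10 (-0.41 ± 0.10, adjusted p = 0.0134) and Hoxc12 (-0.47 ± 0.14, adjusted p = 0.0347) were lower. Those 3 calls stand beside 15.8% of all genes called, 6.47% higher and 9.33% lower. None held without VX680 replicate 1 (adjusted p = 0.111, 0.163 and 0.13 for Hoxb7, Hoxa10 and Hoxc12), and Hoxb7 and Hoxc12 were lost without VX680 replicate 2 (adjusted p = 0.109 and 0.216). Hoxc12 was kept in 10 of 16 alternative settings, and was lost without 5azadC replicate 2 too (adjusted p = 0.153). The Hoxc13 difference between the drugs was within its error (0.01 ± 0.13, adjusted p = 0.984).

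The interaction term asks whether the log2 change with both drugs differs from the sum of the single-drug changes. It passed for 2 of 26 Hox genes, both positive, beside 4.95% higher and 10.6% lower among all genes. Hoxb3 gave 0.93 ± 0.22 (adjusted p = 0.0127) and Hoxc6 1.39 ± 0.40 (adjusted p = 0.0312). Both had fallen with each drug, and their libraries with both drugs overlapped those with 5azadC alone, so the combined fall was smaller than the sum. Neither was called without VX680 replicate 2 (adjusted p = 0.0639 and 0.113) or 5azadC+VX680 replicate 1 (adjusted p = 0.0873 and 0.14). Hoxc6 was lost as well without untreated replicate 2, VX680 replicate 1 or 5azadC+VX680 replicate 2 (adjusted p = 0.0991, 0.0853 and 0.0513). Hoxc12 (0.16 ± 0.20, adjusted p = 0.655) and Hoxc13 (0.28 ± 0.18, adjusted p = 0.339), which were lowest with both drugs, gave no interaction past the threshold. Hoxa11 (-0.73 ± 0.24, adjusted p = 0.0585) and Hoxc8 (2.45 ± 0.81, adjusted p = 0.0568) missed it. The median over the 26 was 0.30, beside -0.03 over all genes.

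RNAs transcribed from within the clusters were measured too. Of 17 in the table, 3 could be tested, with 0 higher and 3 lower with 5azadC, 0 higher and 2 lower with VX680 and 0 higher and 3 lower with both. Hotair, a long RNA between Hoxc11 and Hoxc12, stood at 15.5 and 14.2 CPM in the untreated libraries, 4.57 and 6.31 in the 5azadC libraries, 6.68 and 7.59 in the VX680 libraries and 6.47 and 4.69 with both drugs. Hotair showed log2 changes of -1.46 ± 0.26 (adjusted p = 0.000557) with 5azadC, -1.07 ± 0.25 (adjusted p = 0.0035) with VX680 and -1.42 ± 0.26 (adjusted p = 0.000455) with both, in the direction of its 2 flanking genes. Hoxa11os, the antisense RNA of Hoxa11, stood at 45.97 and 46.9 CPM in the untreated libraries, 27.98 and 28.7 in the 5azadC libraries, 26.5 and 26.6 in the VX680 libraries and 25.6 and 25.7 with both drugs. Hoxa11os showed log2 changes of -0.71 ± 0.12 (adjusted p = 0.000417) with 5azadC, -0.80 ± 0.12 (adjusted p = 0.000132) with VX680 and -0.86 ± 0.13 (adjusted p = 5.79e-05) with both, while Hoxa11 rose. The pair overlaps on opposite strands over 35.0% of the Hoxa11 exons, and their deposited counts moved in opposite directions. Since it is not known whether the counting used strand, reads of Hoxa11 and of the more abundant Hoxa11os may not be separate. Gm53, a noncoding gene in the Hoxb region, stood at 33.6 and 44.4 CPM in the untreated libraries, 24.9 and 27.2 in the 5azadC libraries, 29.9 and 29.6 in the VX680 libraries and 27.6 and 27.5 with both drugs, with log2 changes of -0.58 ± 0.15 (adjusted p = 0.00757) with 5azadC, -0.38 ± 0.15 (adjusted p = 0.0508) with VX680 and -0.49 ± 0.15 (adjusted p = 0.0136) with both. Its calls were lost without untreated replicate 2 (adjusted p = 0.083 with 5azadC and 0.143 with both), and that of both drugs without either of its own libraries (adjusted p up to 0.143). Haglr, Halr1, Hoxd3os1 and Mir10b had 0 reads, and Hottip, beside Hoxa13, had 50 in all.

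Genes that flank the clusters moved in both directions. Of 20 tested, 3 were higher and 2 lower with 5azadC, 5 higher and 2 lower with VX680 and 5 higher and 5 lower with both. In either direction 42.2%, 46.1% and 55.7% of all genes were called, so the flanking genes were called no more often than genes at large. Their median log2 changes were -0.01, 0.14 and 0.12. Calcoco1, a coactivator gene beyond Hoxc13, fell with each treatment, as Hoxc11, Hoxc12 and Hoxc13 did, with log2 changes of -1.14 ± 0.13 (adjusted p = 1.63e-05) with 5azadC, -0.996 ± 0.13 (adjusted p = 3.91e-05) with VX680 and -1.36 ± 0.14 (adjusted p = 1.66e-06) with both. Copz1, a coatomer gene on the far side of Hoxc4, had log2 changes of -0.01 ± 0.13 [not past the threshold], -0.30 ± 0.13 [not past the threshold] and -0.60 ± 0.13 in the order 5azadC, VX680 and both, its homologue Copz2, near Hoxb, -0.43 ± 0.17 [not past the threshold], -0.83 ± 0.17 and -1.29 ± 0.18, and Atp5g3, an ATP synthase subunit gene near Hoxd, 0.39 ± 0.10, 0.32 ± 0.10 and 0.62 ± 0.10. Without untreated replicate 1 Atp5g3 was not called with 5azadC or VX680 (adjusted p = 0.0656 and 0.132), nor with VX680 without either VX680 library (adjusted p up to 0.132).

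Cofactors of the TALE class, which bind DNA with HOX proteins, mostly fell or did not pass. Of 11 tested, 0 were higher and 4 lower with 5azadC, 0 higher and 4 lower with VX680 and 1 higher and 5 lower with both, with medians of -0.25, -0.42 and -0.56. Meis1 stood at 50.6 and 57.3 CPM in the untreated libraries, 35.9 and 29.2 in the 5azadC libraries, 25.7 and 25.6 in the VX680 libraries and 20.7 and 16.7 with both drugs. Meis1 showed log2 changes of -0.72 ± 0.15 (adjusted p = 0.00135) with 5azadC, -1.07 ± 0.15 (adjusted p = 5.54e-05) with VX680 and -1.53 ± 0.16 (adjusted p = 2.09e-06) with both. Meis2 showed log2 changes of -0.61 ± 0.13 (adjusted p = 0.00209) with 5azadC, -0.98 ± 0.13 (adjusted p = 4.67e-05) with VX680 and -1.40 ± 0.14 (adjusted p = 1.51e-06) with both. Pbx3, a partner of HOX proteins, had log2 changes of -0.51 ± 0.12 (adjusted p = 0.00389) with 5azadC, -0.79 ± 0.12 (adjusted p = 0.000147) with VX680 and -0.99 ± 0.13 (adjusted p = 1.55e-05) with both.

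Regulators that hold Hox genes on or off were lower more often than higher. Of 33 Polycomb genes, 4 were higher and 12 lower with 5azadC, 4 higher and 15 lower with VX680 and 4 higher and 16 lower with both, and the medians were -0.28, -0.31 and -0.35. Ezh1, a histone H3 lysine 27 methyltransferase, had log2 changes of -1.16 ± 0.14, -1.47 ± 0.14 and -1.67 ± 0.15 in the order 5azadC, VX680 and both, Jarid2, a Polycomb recruiter, -1.02 ± 0.12, -1.28 ± 0.12 and -1.48 ± 0.12, the chromodomain gene Cbx6 -0.47 ± 0.08, -0.68 ± 0.09 and -0.90 ± 0.09 and Yaf2, whose product joins Polycomb complexes, 0.48 ± 0.13, 1.09 ± 0.13 and 1.20 ± 0.13. The 5azadC call of Yaf2 was lost without untreated replicate 2 or 5azadC replicate 1 (adjusted p = 0.0507 and 0.0737). Of 16 trithorax genes and H3K27 demethylases, 1 was higher and 7 lower, 0 higher and 7 lower and 1 higher and 8 lower in that order, among them the demethylases Kdm6a (-0.64 ± 0.11, -0.80 ± 0.11 and -0.996 ± 0.12) and Kdm6b (-1.28 ± 0.17, -1.07 ± 0.17 and -1.21 ± 0.17) and the methyltransferases Kmt2c (-0.69 ± 0.09, -0.83 ± 0.09 and -1.06 ± 0.10) and Ash1l (-0.45 ± 0.09, -0.54 ± 0.09 and -0.74 ± 0.09). Retinoic acid, which induces anterior Hox genes in embryos, has a pathway of which 11 genes were tested, with 5 higher and 1 lower, 3 higher and 4 lower and 4 higher and 6 lower. Among all genes 22.6%, 23.8% and 28.4% were higher and 19.6%, 22.4% and 27.3% lower in that order. The named members of the pathway were the receptor Rarg (-0.01 ± 0.08 [not past the threshold], -0.69 ± 0.08 and -0.88 ± 0.09), the synthesis enzyme Aldh1a1 (3.93 ± 0.63, 2.52 ± 0.71 and 4.91 ± 0.59) and the binding proteins Crabp1 (1.58 ± 0.18, 1.73 ± 0.18 and 1.88 ± 0.18) and Crabp2 (2.86 ± 0.31, -0.03 ± 0.36 [not past the threshold] and 1.90 ± 0.32). The VX680 call of Aldh1a1 was lost without VX680 replicate 2 (adjusted p = 0.0982).

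Of 41 other transcription factors that mark body position or mesoderm, 9 were higher and 15 lower with 5azadC, 6 higher and 20 lower with VX680 and 6 higher and 22 lower with both, with medians of -0.25, -0.43 and -0.45. Their summed level was 3399.6 to 3787 CPM in untreated and 1629 to 1786 in 5azadC+VX680 libraries. Foxc1, a mesenchymal forkhead gene, had log2 changes of -1.30 ± 0.10, -1.99 ± 0.11 and -2.27 ± 0.11 in the order 5azadC, VX680 and both, and the zinc finger gene Osr2 had -3.30 ± 0.23, -4.76 ± 0.26 and -5.53 ± 0.29. The hedgehog effectors Gli2 (-0.76 ± 0.13, -1.06 ± 0.13 and -1.97 ± 0.14) and Gli3 (-0.72 ± 0.10, -1.42 ± 0.10 and -1.63 ± 0.10) were the other named members. The counts of lower genes in these lists stand beside the backgrounds of 19.6%, 22.4% and 27.3% given for the Hox genes. Those of higher genes stand beside 22.6%, 23.8% and 28.4%.

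Because the cells are F1 hybrids, reads over sequence differences could be given to one parental genome, mus or cas, which held for 15.1% of the Hox reads. A mean of 10 allelic reads per library was reached by 14 Hox genes, of 10301 genes in all. No Hox gene passed the test for a change of allele share: edgeR called 0 of 14 in each of the 3 comparisons with untreated cells, beside 0.282%, 0.379% and 0.515% of all genes with 5azadC, VX680 and both. The lowest adjusted p was 0.665, and 1 of 42 tests, that of Hoxc12 with 5azadC, had an unadjusted p under 0.05. For it the edgeR adjusted p was 0.743. The depth was low, from 101 allelic reads for Hoxb8 to 1219 for Hoxc13 over 8 libraries, so even large shifts could go uncalled. Pooled over the libraries of a group, the mus share of Hoxc12 was 44.5% untreated and 67.8% with 5azadC. That of Hoxb7 was 28.4% and 47.6% (edgeR adjusted p = 0.802). The absence of calls therefore does not exclude a change of allele share.

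Shares over all 8 libraries did differ between genes. Hoxa11 had 24.1% (93 of 386 reads, 95% interval 19.9% to 28.7%) from the mus allele, an exact interval that covers counting error only, and Hoxa10 beside it had 29.1% (191 of 656 reads, 95% interval 25.7% to 32.8%). Among all 10301 genes the median was 46.7% with quartiles of 36.5% and 54.2%, and 12.8% of genes lay at or below Hoxa11 and 16.6% at or below Hoxa10. By group, Hoxa11 was at 19.4% and 30.4% in the untreated libraries, 22.4% and 18.8% with 5azadC, 14.7% and 26.1% with VX680 and 33.96% and 30.8% with both. Hoxa10 was at 33.1% and 37.4%, 26.3% and 26.8%, 24.4% and 23.7% and 24.5% and 30.9% in the same order. Both genes were under 50% in 8 of 8 libraries, as were Hoxb7 at 39.1% (192 of 491 reads, 95% interval 34.8% to 43.6%) and Hoxb13 at 41.2% (213 of 517 reads, 95% interval 36.9% to 45.6%). Hoxc13, the deepest, lay near parity at 51.8% (631 of 1219 reads, 95% interval 48.9% to 54.6%). Hoxc12 had 49.8% (145 of 291 reads, 95% interval 43.9% to 55.7%) in all, but its libraries lay far apart, at 44.6% and 44.4% untreated, 76.9% and 60.6% with 5azadC, 56.4% and 50% with VX680 and 20% and 35.7% with both, the last from 10 and 14 reads. Hoxa9, next to Hoxa10, had 45.2% (518 of 1145 reads, 95% interval 42.3% to 48.2%). The median over all genes was also below 50%, and the part of that in the Hox shares was not tested.

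**Figure D5:**
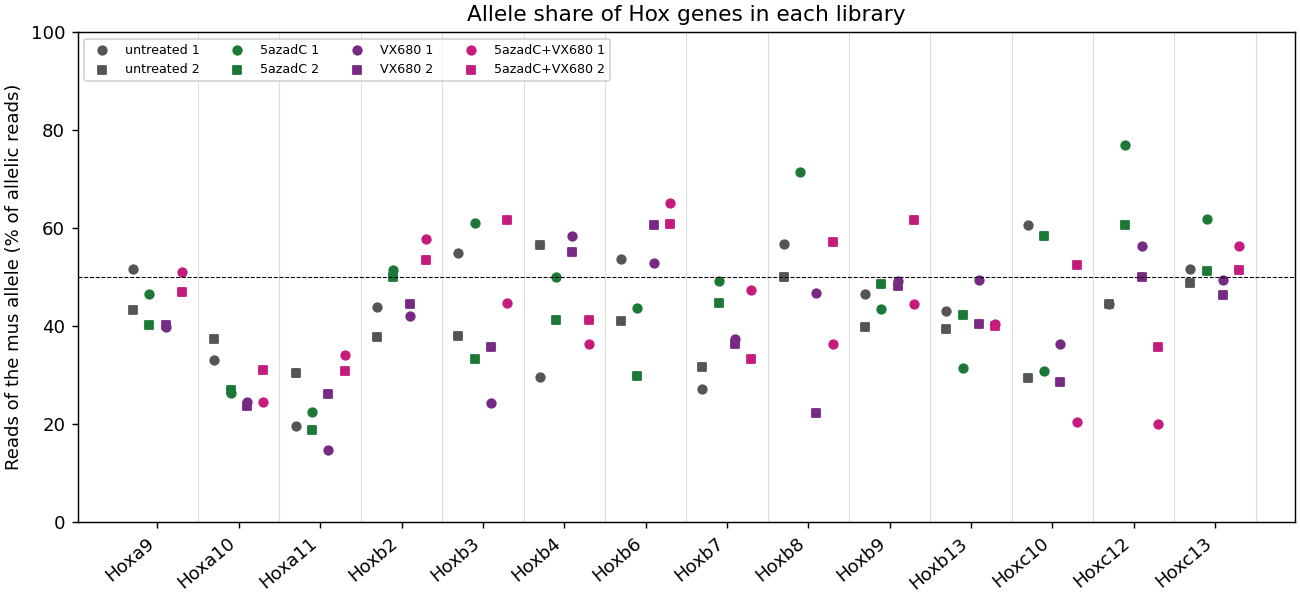
Percent of allelic reads from the mus allele (vertical axis) in each library (circle replicate 1, square replicate 2, colour by group) for the 14 Hox genes with enough allelic reads; the dashed line is 50%. Hoxa10 and Hoxa11 lie under 50% in all 8 libraries, Hoxc13 lies around it, and no gene has a group that passed the test.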

How the data were processed

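RNA was sequenced from 8 tail fibroblast libraries, 2 in each of 4 groups taken from the labels, with totals of 6908503 to 11169532 reads in genes. The sources give TopHat2 2.0.10, HOMER 4.8, edgeR and the mm9 build, per the submitters' processing notes, without role or order. The deposited composite table holds raw counts per gene, both alleles together. A second deposited table has raw counts split into mus and cas reads (8 columns that repeat their sum were not used). The deposited normalized signal is the raw count times 1 factor per library, made by the authors in a way not given in the sources used here. Gene length in bases, the other quantity per the file headers, scaled levels only. The authors' own tables of allelic comparisons were not used.

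Counts were tested with edgeR 4.0.16 in R 4.3.3 (filterByExpr, TMM, 1 mean per group over all 8 libraries, quasi-likelihood test, Benjamini-Hochberg adjustment over 12643 genes, threshold 0.05) in 7 contrasts. The SE is the log2 change divided by the square root of F. Allele shares were tested with edgeR on the mus and cas counts (a term per library and a mus term per group, at least 10 allelic reads per library on average), and shares carry exact 95% intervals. The edgeR fit of the counts and that of the allele shares were tested on simulated data, though not in every contrast. The alternatives were DESeq2 1.42.0, other scaling factors and filters, limma 3.58.1 on log2 of the deposited signal with a pseudocount of 1, a replicate block, fits on the compared groups alone and leaving out each library.

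The members, the gene lists (7 pathway or neighbour lists and 9 of cell type markers) and the tests were chosen with earlier results of these data known. Every Hox gene past the filter is named, the others by read count. Values of 3 genes are not reported here. From each other list, up to 4 called members with the smallest p over the comparisons with untreated cells are named. Overlaps and homeobox sequences come from GENCODE M21 (GRCm38); since the files use mm9, no coordinates are given.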

Additional observations from a re-analysis of the deposited data

Results flagged for a closer look

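The interaction of the drugs in Hoxb3 was 0.93 ± 0.22 (adjusted p = 0.0127), so the effect of VX680 differed between cells with and without 5azadC by the test of that difference. VX680 changed Hoxb3 by -0.99 ± 0.15 on the log2 scale without 5azadC and by -0.06 ± 0.16 with it. The level was 63.3 ± 5.18 CPM (mean ± SD, n = 2) in untreated cells, 29.9 ± 4.5 with 5azadC, 31.7 ± 2.32 with VX680 and 28.8 ± 5.8 with both. For Hoxc6 the interaction was 1.39 ± 0.40 (adjusted p = 0.0312). VX680 changed Hoxc6 by -1.13 ± 0.27 without 5azadC and by 0.26 ± 0.29 with it. The level was 15.5 ± 2.72 CPM (mean ± SD, n = 2) in untreated cells, 7.37 ± 2.66 with 5azadC, 6.99 ± 0.662 with VX680 and 8.93 ± 1.69 with both. Over 15 alternative settings the adjusted p of the Hoxb3 interaction lay between 0.000404 and 0.0873, and that of Hoxc6 between 0.00335 and 0.14. The opposite-strand gene Hoxb3os overlaps 52.9% of the Hoxb3 exons, and its part in the count was not tested.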

How the results depend on the processing

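Of the Hox calls against untreated cells, 10 of 16 with 5azadC, 9 of 16 with VX680 and 12 of 20 with both were kept in each alternative setting that tested the gene. Over the single genes named, 2487 values under an alternative kept their direction and side of the threshold, 109 lost and 29 gained a call, and 18 changed sign. With 1 library left out, Hox genes called numbered 11 to 17 with 5azadC, 10 to 18 with VX680 (10 without VX680 replicate 1), 14 to 21 with both, 3 to 7 for both against 5azadC, 0 to 6 for both against VX680, 0 to 4 for VX680 against 5azadC and 0 to 4 for the interaction. Upper quartile factors gave 7 and limma on the authors' signal 9 calls for both against 5azadC, in place of 4. Without a filter on low counts there were 6 for both against VX680 (as many with only the groups compared), 5 for VX680 against 5azadC and 6 for the interaction. Same-numbered libraries did not deviate together (correlations of -0.0622 to 0.0326). The labels do not say whether the numbers pair libraries, and these correlations cannot decide it. With a replicate block Hox calls were 2 higher and 14 lower with 5azadC, 2 higher and 13 lower with VX680, 5 higher and 14 lower with both, 1 higher and 3 lower for both against 5azadC, 0 higher and 3 lower for both against VX680, 1 higher and 2 lower for VX680 against 5azadC and 2 higher and 1 lower for the interaction. The cause of these differences was not tested.

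On the authors' signal the summed Hox level per kb was 443 with 5azadC and 469 with VX680. As reads not divided by length, posterior shares were 80.9% untreated, 81.9% with 5azadC (above untreated, where the share per kb was below it), 77.6% with VX680 and 74.03% with both, and Hoxc shares 52.4%, 43.7%, 40.6% and 35.9% in the order untreated, 5azadC, VX680, both.

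Sign changes, none of them in a called value, came mostly from leaving out 1 library. Over those settings the log2 change with 5azadC ran from -0.35 to 0.52 for Hoxa7 (lowest without 5azadC replicate 1), -0.27 to 0.16 for Hoxb2 (above 0 without untreated replicate 2 and, at 0.0328, without 5azadC replicate 1), -0.24 to 0.0547 for Hoxb6, -1.44 to 0.21 for Hoxc9 and -0.21 to 0.20 for Copz1. With VX680 it ran from -0.047 to 0.25 for Hoxb6 and -0.30 to 0.38 for Crabp2, and with both from -0.22 to 0.0101 for Hoxb8 and -0.0204 to 0.31 for Hoxb9. With limma on the authors' signal Hoxb8 with both gave 0.0108, Copz1 with 5azadC 0.00813 and Crabp2 with VX680 0.14. Without a filter Copz1 gave 0.00279 and Rarg 0.00176 with 5azadC, and with upper quartile factors Crabp2 gave 0.00674 with VX680. Genes with the fewest reads carried the widest errors, and the 9 Hoxd genes were too shallow for a test.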
